A study of Mus musculus with 4 samples.

Results

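The neutrophil-attracting CXC chemokine genes Cxcl1, Cxcl2, Cxcl3, Cxcl5, Ppbp and Pf4 were followed across 4 mouse genotypes. They were taken by name from the platform's gene symbols, which gave 6 of 18193 named genes and 8 of 45037 probe sets. Cxcl1 had 3 probe sets and each of the other genes had 1.

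Each genotype was measured on 1 Affymetrix expression array of intestinal epithelial cells, which were shaken off the opened colon in EDTA with no sorting step in the protocol. The groups were wild type (WT), Bmi1ΔIEC, Mel18ΔIEC and the double knockout (DKO), labelled Bmi1ΔIEC Mel18ΔIEC. ΔIEC is read here as deletion in intestinal epithelial cells, and the Cre line that deletes the genes and the number of mice per array are not given in the sources used here. Bmi1 and Mel18 (gene symbol Pcgf2) are related subunits of Polycomb repressive complex 1, which keeps genes silent through chromatin. All mice were of strain C57BL/6, aged 6 to 8 weeks and sex-matched, and all of them, WT included, had the colitis-associated cancer model. They received azoxymethane, a carcinogen, at 10 mg/kg. From 5 days after it they drank dextran sulfate sodium (3.5%), which injures the colon lining, for 5 days, and were sampled on day 12.

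These chemokines are small secreted proteins that lie in 1 gene cluster in the mouse. Cxcl1, Cxcl2, Cxcl3, Cxcl5 and processed Ppbp carry the residues glutamate, leucine and arginine before their first cysteines and draw neutrophils through the receptor Cxcr2. Pf4, platelet factor 4, lacks these residues and is a weak neutrophil attractant that is released with Ppbp from platelet granules. In injured colon, epithelial and immune cells make Cxcl1, Cxcl2 and Cxcl5 in response to interleukin 1, tumour necrosis factor, interleukin 17 and bacterial products, largely through the transcription factor NF-kappaB.

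The 150 bases before the start of each gene are shown because a shared NF-kappaB element sets 3 of the genes apart from the other 2. They come from RefSeq promoters of build GRCm38.p6, which held 5 of the 6 genes, with no entry for Cxcl5. Capitals mark a 10-letter form of the NF-kappaB element and the letters TATAAA.
Cxcl1, chr5:90891095-90891244, + strand: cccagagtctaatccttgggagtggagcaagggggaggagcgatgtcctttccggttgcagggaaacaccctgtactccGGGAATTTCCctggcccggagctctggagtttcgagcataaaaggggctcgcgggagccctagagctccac
Cxcl2, chr5:90903749-90903898, + strand: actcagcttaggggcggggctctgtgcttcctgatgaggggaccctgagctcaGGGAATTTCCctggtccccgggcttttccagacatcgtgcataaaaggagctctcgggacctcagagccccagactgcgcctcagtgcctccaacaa
Cxcl3, chr5:90785951-90786100, + strand: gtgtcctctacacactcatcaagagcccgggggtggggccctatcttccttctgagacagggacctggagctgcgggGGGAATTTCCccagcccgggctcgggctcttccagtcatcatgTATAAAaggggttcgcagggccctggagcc
Ppbp, chr5:90768368-90768517, + strand: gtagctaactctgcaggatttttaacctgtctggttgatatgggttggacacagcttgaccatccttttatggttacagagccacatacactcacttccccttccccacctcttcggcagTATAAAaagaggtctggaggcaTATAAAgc
Pf4, chr5:90772285-90772434, + strand: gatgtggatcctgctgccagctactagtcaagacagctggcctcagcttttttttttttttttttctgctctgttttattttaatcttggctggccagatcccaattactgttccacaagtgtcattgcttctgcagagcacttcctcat

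Cxcl1, Cxcl2 and Cxcl3 each held the 10 capital letters of the element, beginning 71, 97 and 73 bases before the start. The letters occurred on either strand in 29 of 32851 promoters of 300 bases, 0.0883% of them, and the 3 chemokines were among these. Another 10-letter form of the element matched at the same places on the opposite strand, shifted by 1 base, so it is not a further site, and the remaining form searched matched none of the 5. The degenerate NF-kappaB consensus, which contains these forms, matched the same 3 chemokine promoters and 4.51% of all promoters. TATAAA was found 30 bases before the start in Cxcl3 and Ppbp, with a further match at 8 bases in Ppbp, and in 13.6% of all promoters. Aligned on the element without gaps over 90 positions, Cxcl1 and Cxcl2 had 45.6% identical bases, Cxcl1 and Cxcl3 42.2%, and Cxcl2 and Cxcl3 35.6%. The 10 letters of the element are among these positions and match by construction. Identity between unrelated promoters was not measured, so these shares do not show similarity beyond the element. Carrying the element did not go with 1 pattern across the arrays. Of the 26 other genes whose promoter held the same letters, 16 had a named probe set. Among the 10 of these that were bright enough to compare, none was lower than WT on any array under the rule given next. Higher under that rule were 2 on the Bmi1ΔIEC-labelled array, Csad at 1.51 and Zfp84 at 1.12, 1 on the Mel18ΔIEC-labelled array, Csad at 1.23, and none on the DKO-labelled array. Of all genes tested 5.76%, 3.15% and 2.13% were higher on these arrays and 2.86%, 2.5% and 2.19% lower. The 10 genes had a median log2 difference from WT of 0.18, 0.16 and -0.17 on the Bmi1ΔIEC-labelled, Mel18ΔIEC-labelled and DKO-labelled arrays. Nfkbia, the NF-kappaB inhibitor and itself a target of the factor, was 1 of them and differed by -0.27, -0.42 and -0.28.

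Intensities are RMA values in linear units, and differences are of their log2 values. Each genotype has a single array and thus no replicate, no standard deviation and no p-value, so the precision is limited by the number of arrays. The size rule calls a gene lower or higher if its values were 2-fold or more apart and the brighter one reached a floor of 33.4 units, the median of all probe-set values. A gene with several probe sets was represented by the one with the highest mean log2 value. The Spearman correlation between arrays across probe sets ran from 0.969 to 0.990, and the Bmi1ΔIEC-labelled and Mel18ΔIEC-labelled arrays were the closest pair. The 2 probe sets of Bmi1 gave higher values where its loss is labelled, for example at 116 units in WT and 334 on the Bmi1ΔIEC-labelled array, which goes against that label if the probes lie in the deleted part. Pcgf2 lay between 30.2 and 39.8 units with its brighter probe set. Neither reading checks a genotype, because the deleted exons are not given, so each array keeps its label as a name. The preparations expressed epithelial genes, such as Epcam at 9819 to 10930 units and Krt8 at 17490 to 19605 units.

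**Figure D1:**
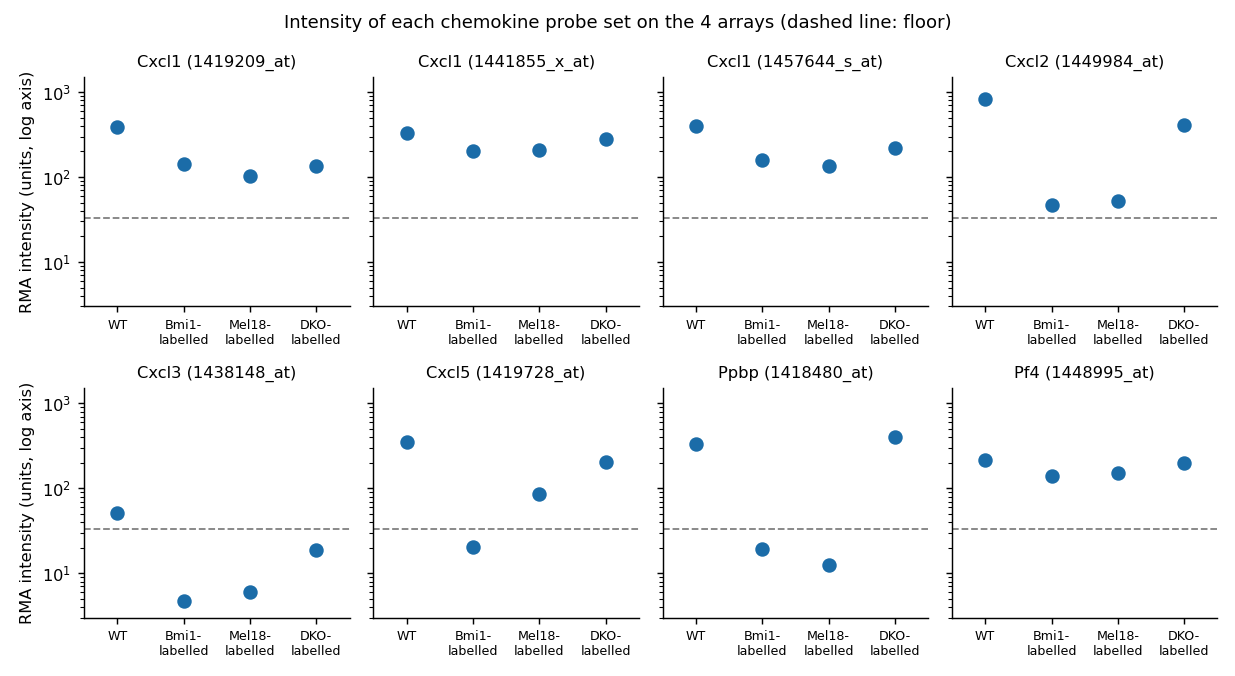
RMA intensity in linear units on a log axis for the 8 chemokine probe sets, with 1 point per array and the floor of 33.4 units as a dashed line. Cxcl2, Cxcl5 and Ppbp are bright on the WT and DKO-labelled arrays and much dimmer on the Bmi1ΔIEC-labelled and Mel18ΔIEC-labelled arrays, while Pf4 varies little.

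Cxcl2, a rapidly induced neutrophil attractant also called MIP-2, read 836 units on the WT array, 46.5 on the Bmi1ΔIEC-labelled array, 51.8 on the Mel18ΔIEC-labelled array and 413 on the DKO-labelled array. Its level on the arrays labelled for a single loss was thus 5.57% and 6.19% of that in WT, and on the DKO-labelled array 49.4%. All 4 values lay above the floor, and the differences from WT were -4.17, -4.01 and -1.02. The values of 46.5 and 51.8 units lay under 136 units, percentile 75 of all values, which serves below as an alternative floor. The sizes of -4.17 and -4.01 may thus rest in part on signal near background. Over the 9 alternatives they ran from -4.40 to -3.47 and from -4.17 to -3.37.

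Cxcl5, a chemokine also called LIX that is made mainly by epithelial cells, read 350 units in WT, 20.3 on the Bmi1ΔIEC-labelled array, 86.9 on the Mel18ΔIEC-labelled array and 202 on the DKO-labelled array. It separated the arrays labelled for a single loss, at -4.11 and -2.01 from WT. The value on the Bmi1ΔIEC-labelled array was under the floor, and with that value set at the floor Cxcl5 was at least 10.5-fold lower than in WT.

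Cxcl3, a close relative of Cxcl1 and Cxcl2, reached the floor only in WT, at 51.6 units, and read 4.69, 6.03 and 18.6 on the Bmi1ΔIEC-labelled, Mel18ΔIEC-labelled and DKO-labelled arrays. The measured differences were -3.46, -3.10 and -1.47. With the dimmer values at the floor, each of them is only at least 1.55-fold, so the sizes are not exact.

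Cxcl1, the chemokine also called KC, gave different sizes with its 3 probe sets. The probe set 1419209_at read 388 units in WT, 142 on the Bmi1ΔIEC-labelled array, 104 on the Mel18ΔIEC-labelled array and 136 on the DKO-labelled array. The probe set 1457644_s_at read 398, 159, 133 and 219 in the same order. The probe set 1441855_x_at, which represents the gene by the rule, read 326, 203, 207 and 278. All 3 were brightest in WT. The first was lower than WT by the size rule on every knockout-labelled array, at -1.45, -1.90 and -1.51. The second was lower on the arrays labelled for a single loss, at -1.32 and -1.58, and read -0.86 on the DKO-labelled array. The third passed on none, at -0.68, -0.66 and -0.23. By the platform's naming, probes of _s_at and _x_at sets can match other transcripts, and how much that adds here was not tested.

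Ppbp, the precursor of the platelet chemokine NAP-2, read 334 units in WT, 19.2 on the Bmi1ΔIEC-labelled array, 12.5 on the Mel18ΔIEC-labelled array and 405 on the DKO-labelled array. It was the only 1 of the 6 genes that was brightest on the DKO-labelled array, where it read 121% of WT, a difference of 0.28 that is under 2-fold. On the arrays labelled for a single loss it lay under the floor at -4.12 and -4.74, and was at least 10.03-fold lower than WT with those values at the floor.

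Pf4 read 219 units in WT, 138 on the Bmi1ΔIEC-labelled array, 153 on the Mel18ΔIEC-labelled array and 201 on the DKO-labelled array. Its differences of -0.66, -0.51 and -0.12 were all under 2-fold. Thus Ppbp and Pf4, which platelets store together, did not vary together on these arrays: the range over the 4 arrays was 5.02 for Ppbp and 0.66 for Pf4 on the log2 scale.

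**Figure D2:**
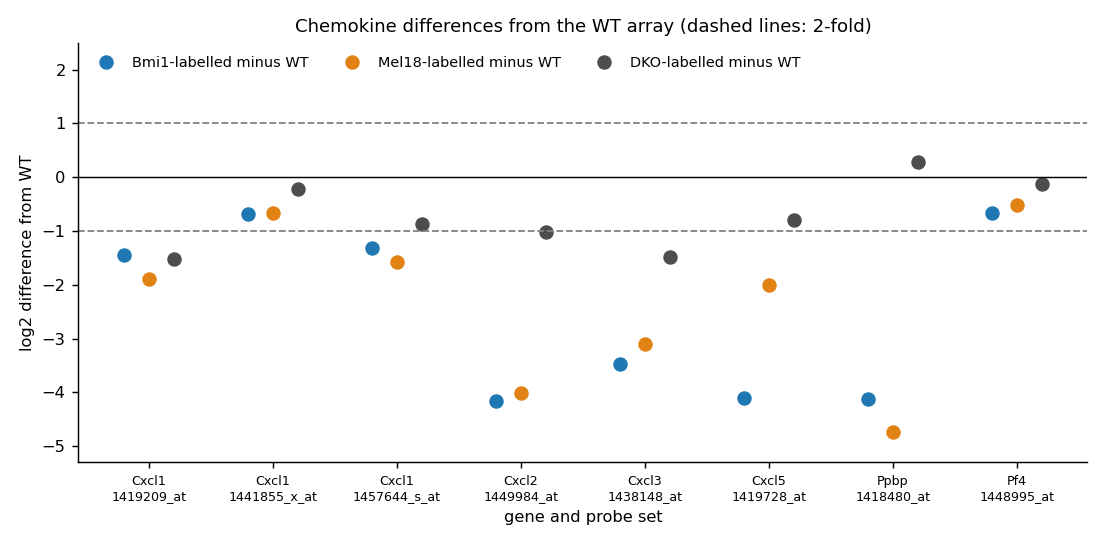
Log2 difference from the WT array for each of the 8 probe sets, with 1 point per knockout-labelled array and dashed lines at 2-fold. Cxcl2, Cxcl3, Cxcl5 and Ppbp lie from -2.01 to -4.74 on the arrays labelled for a single loss, and no point lies above 0.28.

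On the Bmi1ΔIEC-labelled array 4 of the 6 genes were lower than WT and none was higher, namely Cxcl2, Cxcl3, Cxcl5 and Ppbp. Over all 11934 genes tested 2.86% were lower. The median difference of the 6 genes was -3.79, against 0.13 over all genes tested. By size, Cxcl2, Ppbp, Cxcl5 and Cxcl3 took places 12, 13, 14 and 22 from the lowest difference. Ppbp, Cxcl5 and Cxcl3 lay under the floor on this array, so their places and the median are not exact. With its value at the floor, Cxcl3 would be 1.55-fold lower and miss the rule. By probe set 6 of 8 were lower, against 5.44% of all probe sets tested, because 2 of the 3 Cxcl1 probe sets passed.

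On the Mel18ΔIEC-labelled array the same 4 genes were lower and none was higher, where 2.5% of 11862 genes tested were lower. The median was -2.56, against 0.07 over all genes tested. Ppbp, Cxcl2, Cxcl3 and Cxcl5 took places 4, 7, 25 and 60 from the lowest. Ppbp and Cxcl3 lay under the floor on this array too, so their places and the median are not exact. By probe set 6 of 8 were lower, against 2.63% of all probe sets tested. Both comparisons use the 1 WT array, so they are not independent of each other.

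On the DKO-labelled array 2 of the 6 genes, Cxcl2 and Cxcl3, were lower and none was higher, where 2.19% of 11853 genes tested were lower. The median was -0.51, against -0.01 over all genes tested. By probe set 3 of 8 were lower, against 2% of all probe sets tested. Cxcl2 passed the rule narrowly at -1.02 and missed it narrowly with quantile normalization. Cxcl3, dim on all arrays, no longer passed with the floor at percentile 75 of all values, 136 units.

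The arrays labelled for a single loss differed from each other in 1 of the 6 genes. Cxcl5 read 20.3 units on the Bmi1ΔIEC-labelled array and 86.9 on the Mel18ΔIEC-labelled array, a difference of -2.10 that was the fourth lowest of 11681 genes tested, of which 0.522% were lower. With the dimmer value at the floor it was at least 2.60-fold. Cxcl2 differed by -0.15 and Pf4 by -0.15, while Cxcl3 and Ppbp lay under the floor on both arrays.

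The DKO-labelled array was then compared with the arrays labelled for a single loss. Against the Bmi1ΔIEC-labelled array 3 of the 6 genes were higher, namely Ppbp by 4.40, Cxcl5 by 3.32 and Cxcl2 by 3.15, where 4.3% of 11966 genes tested were higher. Against the Mel18ΔIEC-labelled array the same 3 were higher, Ppbp by 5.02, Cxcl2 by 3.00 and Cxcl5 by 1.22, where 3.84% of 11879 genes tested were higher. With dimmer values at the floor, Ppbp was at least 12.1-fold higher than on either array. Cxcl5 was then at least 6.06-fold higher than on the Bmi1ΔIEC-labelled array. Cxcl3 was under the floor on all 3 arrays, and Cxcl1 and Pf4 differed by less than 2-fold with every probe set.

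Each contrast could thus be read on both backgrounds from arrays that are not shared. The Bmi1 contrast was -4.17 on the WT background and 3.00 on the Mel18ΔIEC-labelled background for Cxcl2, -4.11 and 1.22 for Cxcl5, and -4.12 and 5.02 for Ppbp. The Mel18 contrast was -4.01 on the WT background and 3.15 on the Bmi1ΔIEC-labelled background for Cxcl2, -2.01 and 3.32 for Cxcl5, and -4.74 and 4.40 for Ppbp. All 3 genes were thus lower in the first reading and higher in the other, past the size rule in both, with Cxcl5 closest to it at 1.22. Of all genes tested on both backgrounds 1.22% showed this for the Bmi1 contrast and 1.14% for the Mel18 contrast. The departure from additive log2 differences was 7.16 for Cxcl2, 5.33 for Cxcl5 and 9.14 for Ppbp. It was between 1.11 and 2.03 for the Cxcl1 probe sets and 1.05 for Pf4. Ppbp on both arrays labelled for a single loss and Cxcl5 on the Bmi1ΔIEC-labelled array lay under the floor. Their departures are thus not exact, and that of Ppbp cannot be ranked above that of Cxcl2.

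**Figure D3:**
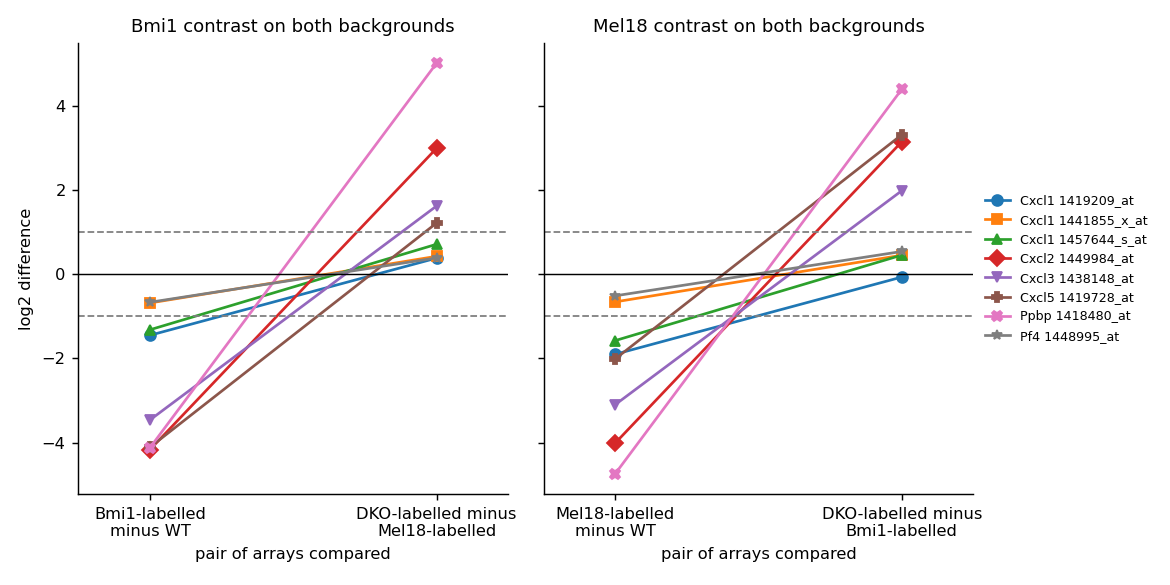
Log2 difference for the Bmi1 contrast (left) and the Mel18 contrast (right), each on the WT background and on the background labelled for the other loss, with 1 line per probe set and dashed lines at 2-fold. Lines for Cxcl2, Cxcl5 and Ppbp cross from below -1 to above 1, and the Cxcl3 points on the right of each panel compare values that are both under the floor.

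In the chromosome order of assembly GRCm38.p6 the cluster runs Cxcl5, Ppbp, Pf4, Cxcl3, Cxcl15, Cxcl1 and Cxcl2 on chromosome 5. Genes low on the arrays labelled for a single loss and genes that differed less were interleaved. Pf4, at -0.66 and -0.51, lies between Ppbp, at -4.12 and -4.74, and Cxcl3, at -3.46 and -3.10. Cxcl15, lungkine, lies between Cxcl3 and Cxcl1 and read 9.17 to 10.5 units, under the floor on every array. The flanking genes Rassf6, at 503 to 647 units, and Mthfd2l, at 115 to 189 units, differed from WT by less than 2-fold on all 3 arrays. Ereg, a growth factor of the epidermal growth factor receptor and a further neighbour, read 26.4 units in WT, 12.8 and 12.4 on the Bmi1ΔIEC-labelled and Mel18ΔIEC-labelled arrays and 65.2 on the DKO-labelled array. Only its difference of 1.30 on the DKO-labelled array could be compared at the floor, where 2.13% of genes tested were higher.

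**Figure D4:**
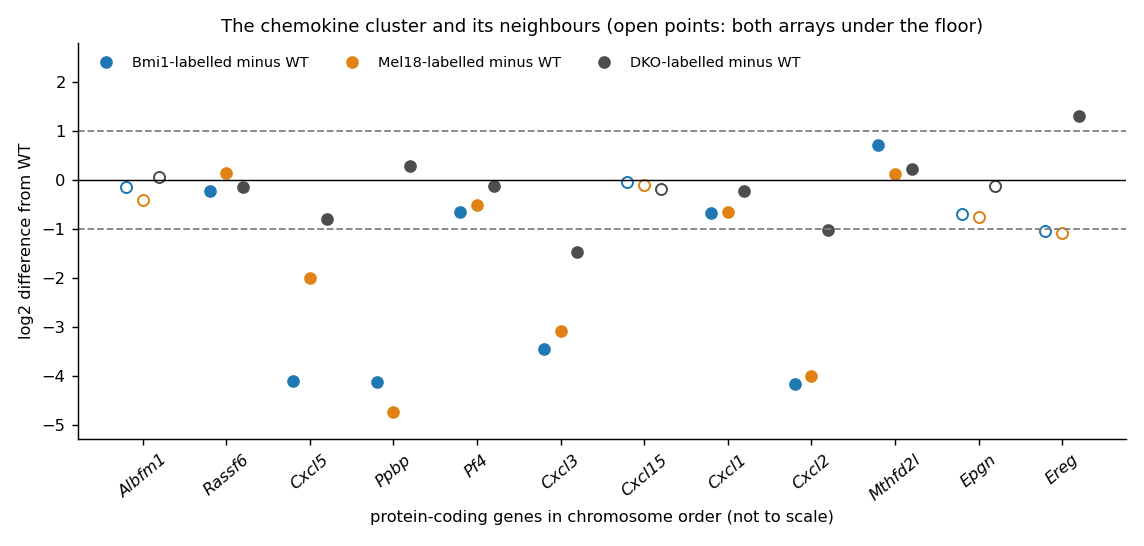
Log2 difference from the WT array for measured protein-coding genes of the cluster and its neighbours, in chromosome order and not to scale, with 1 point per knockout-labelled array. Open points mark genes under the floor on both arrays. Cxcl5, Ppbp, Cxcl3 and Cxcl2 lie lowest, with Pf4, Cxcl15 and Cxcl1 between them closer to 0.

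In a list of chemokine receptors and scavengers, the measured genes were dim or changed little. Cxcr2, the neutrophil receptor for the ligands, read 16.4, 10.5, 12.1 and 31.1 units in WT and on the Bmi1ΔIEC-labelled, Mel18ΔIEC-labelled and DKO-labelled arrays, all under the floor. Cxcr3, which binds interferon-induced chemokines and Pf4, read 38.6, 30.1, 34.4 and 25.8 units. Ackr1, a chemokine scavenger of red cells and venules, read 94.9, 86.2, 66.5 and 116 units. Ackr2 stayed under the floor at 20.7 to 23.3 units, Ackr3 read 31.0 to 51.5 and Ackr4 47.3 to 73.5. None of the 4 receptors and scavengers that could be compared passed the size rule in any comparison with WT. Cxcr2 was not among these 4, and Cxcr1 had no named probe set.

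Among the other 9 CXC chemokines, Cxcl16 alone was lower than WT on both arrays labelled for a single loss. Cxcl16, a transmembrane chemokine of epithelium and macrophages, read 260 units in WT, 121 on the Bmi1ΔIEC-labelled array, 128 on the Mel18ΔIEC-labelled array and 360 on the DKO-labelled array, at -1.10, -1.02 and 0.47. Its second probe set gave -1.72, -1.57 and 0.80. Cxcl9, induced by interferon gamma to draw T cells, read 270 in WT, 244, 53.3 and 93.9 units, at -0.14, -2.34 and -1.52. The related Cxcl10 differed by 0.77, -0.70 and 0.42, and Cxcl11 by 0.88, -0.57 and 0.20. Cxcl12, a stromal chemokine, differed by -0.86, -0.35 and 0.12, but by 0.65, 0.20 and 0.36 with a dimmer probe set above the floor. Cxcl13, of B cell follicles, differed by -0.41, -0.60 and -0.04. Cxcl14 lay near the floor at 29.9 to 36.0 units, Cxcl17, a mucosal chemokine, at 65.4 to 86.7, and Cxcl15 is given above. In all, 1, 2 and 1 of the 8 that could be compared were lower, with medians of -0.21, -0.59 and 0.10.

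Cytokines that induce these chemokines, and their receptors, were in part lower too. On the Bmi1ΔIEC-labelled array 5 of 13 were lower and 1 higher, on the Mel18ΔIEC-labelled array 4 of 13 and 1, and on the DKO-labelled array 1 of 14 and 1. With probe sets averaged per gene, those past the rule in either direction went from 6, 5 and 2 to 3, 2 and 1. Osmr, Il1r1 and Tnfrsf1b each have a further probe set under the floor on every array. Il1b, a main inducer, read 1161 units in WT, 96.2 on the Bmi1ΔIEC-labelled array, 129 on the Mel18ΔIEC-labelled array and 928 on the DKO-labelled array. Tnf read 136, 53.1, 54.5 and 89.3 units in that order. Osmr, the receptor of oncostatin M, was low on all 3 knockout-labelled arrays at -2.36, -2.50 and -2.56, unlike Il1b at -3.59, -3.17 and -0.32. Osm itself was lower on the Bmi1ΔIEC-labelled array at -1.13, and Tnfrsf1b, a receptor of tumour necrosis factor, was lower at -1.34 and -1.16 on the arrays labelled for a single loss. Il1r1, the signalling receptor of interleukin 1, was higher there at 1.62 and 1.11. On the DKO-labelled array Il1rn, the receptor antagonist, was higher at 1.02. Il17a read 22.1 to 34.2 units and reached the floor only on the DKO-labelled array, while its receptor subunits Il17ra and Il17rc differed by less than 2-fold on every array.

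Genes of Toll-like receptor, interleukin 1 and interleukin 17 signalling and of NF-kappaB changed little. Of 23 that could be compared, 1 was lower on the Bmi1ΔIEC-labelled array, the feedback inhibitor Tnfaip3 at -1.02, and 1 on the Mel18ΔIEC-labelled array, the inhibitor Nfkbie at -1.06. None of 24 passed on the DKO-labelled array. The medians were -0.07, -0.12 and 0.03. Rela, the main activating subunit, differed by -0.07, -0.04 and 0.21, and Nfkbiz, a cofactor for interleukin 17 targets, by -0.88, -0.63 and -0.58. Among 8 regulators of chemokine transcript decay and stability, 1 was higher in each comparison, Zfp36l2, an RNA-binding protein that promotes decay, at 1.19, 1.18 and 1.44. That call rests on its brightest probe set: the 2 others read between -0.10 and 0.04, and with its probe sets averaged the list had none past the rule in any comparison. Its relative Zfp36 differed by 0.53, 0.32 and 0.09. Of the neutrophil growth factor genes Csf3, which drives neutrophil production, stayed under the floor at 21.9 to 27.9 units, as did Il6 at 6.02 to 11.7. In that list of 8 genes Cxcr4 was lower on the Mel18ΔIEC-labelled array at -1.81. On the Bmi1ΔIEC-labelled array it passed narrowly, at 41.4 units against 83.1 in WT. Kit, the stem cell factor receptor, was higher at 1.81 and 1.36.

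Neutrophil and mast cell markers were in large part lower on the arrays on which the chemokines were lower, and macrophage markers in smaller part. In a tissue preparation fewer cells of a type and less RNA per cell cannot be told apart. Of the neutrophil markers 7 of 13 compared were lower on the Bmi1ΔIEC-labelled array and 7 of 13 on the Mel18ΔIEC-labelled array, with none higher and medians of -1.03 and -1.15. On the DKO-labelled array 1 of 15 was lower, Cd177 at -1.92, with a median of 0.14. S100a8 and S100a9, the calprotectin subunits, read 935 and 762 units in WT, 33.1 and 16.0 on the Bmi1ΔIEC-labelled array, 93.4 and 52.7 on the Mel18ΔIEC-labelled array and 851 and 731 on the DKO-labelled array. Fpr2, a formyl peptide receptor of phagocytes, differed by -1.99, -1.76 and 0.11. The granule genes Mpo, Elane, Prtn3, Ctsg, Camp and Mmp8 were under the floor, except Elane on the DKO-labelled array, and lay at 8.27 to 34.4 units. The summed intensity of the 21 measured neutrophil markers was 3908, 1559, 1492 and 3089 units in WT and on the Bmi1ΔIEC-labelled, Mel18ΔIEC-labelled and DKO-labelled arrays. Without Cd177, which read 974, 1000, 832 and 258 units, the sums were 2934, 559, 661 and 2831 units. Mast cell markers were lower on the arrays labelled for a single loss in 6 of 8 and 5 of 8, and Kit, also a mast cell marker, was higher on both at 1.81 and 1.36. On the DKO-labelled array 1 of 9 was lower, Cma1 at -1.07. Those lower on the first arrays included Mcpt2, a mucosal mast cell protease, at -3.27 and -2.63. The 10 genes summed to 2664, 720, 810 and 2485 units. Macrophage and monocyte markers were lower in 9 of 17, 3 of 17 and 0 of 17, and summed to 4668, 3031, 2880 and 4888 units over 18 genes. The part of these cells in the chemokine differences was not tested.

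Platelet and megakaryocyte markers other than Ppbp and Pf4 did not share the Ppbp differences. None of 7 compared was lower than WT on any array, with medians of -0.22, -0.17 and 0.17. Itga2b, the platelet fibrinogen receptor subunit, read 133, 106, 109 and 108 units, and Gp9 39.6, 24.6, 30.6 and 33.9. Gp1bb and F13a1 were higher on the DKO-labelled array at 2.22 and 1.23, but the second Gp1bb probe set read 0.23. The defining genes Gp5, Gp6, Clec1b, Tubb1 and Gata1 lay under the floor on every array, at 5.48 to 26.2 units. The 16 measured markers summed to 841, 828, 927 and 1173 units. Of these, Rab27b gave 318, 380, 452 and 431 units and Gp1bb 48.8, 44.0, 45.5 and 227, so the sum rests in large part on these genes. The further probe sets of Rab27b differed by 1.15, 0.92 and 0.11 on the Bmi1ΔIEC-labelled array. On the Mel18ΔIEC-labelled array they differed by 1.18, 1.09 and -0.11. Of the 17 colon epithelium markers 1 was lower and 1 higher on the Bmi1ΔIEC-labelled array, namely Krt20, of surface colonocytes, at -1.29 and Fabp2 at 1.20. On the Mel18ΔIEC-labelled array Fabp2 was higher at 1.33 and none was lower. On the DKO-labelled array Car1 and Fabp2 were higher at 1.45 and 1.32, and Slc26a3, a chloride exchanger, was lower at -1.15. Their medians were -0.18, -0.04 and 0.13. Fibroblast markers were lower on the Bmi1ΔIEC-labelled array in 7 of 17 and on the Mel18ΔIEC-labelled array in 0 of 17. Fap was higher on all 3 knockout-labelled arrays at 1.53, 1.07 and 1.11, joined on the DKO-labelled array by Pdgfrb at 1.35 and Pdpn at 1.17, so that 3 of 17 were higher there. T and NK cell markers were lower in 1 of 10 and 3 of 10 and higher on the DKO-labelled array in 3 of 11. B and plasma cell markers were lower in none of 7 on any array, and endothelial markers in none of 6, 5 and 6. Jchain and Ighm, of antibody-secreting cells, were higher on the DKO-labelled array at 1.09 and 1.29, and Vwf, of endothelium, on the Bmi1ΔIEC-labelled array at 1.08.

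**Figure D5:**
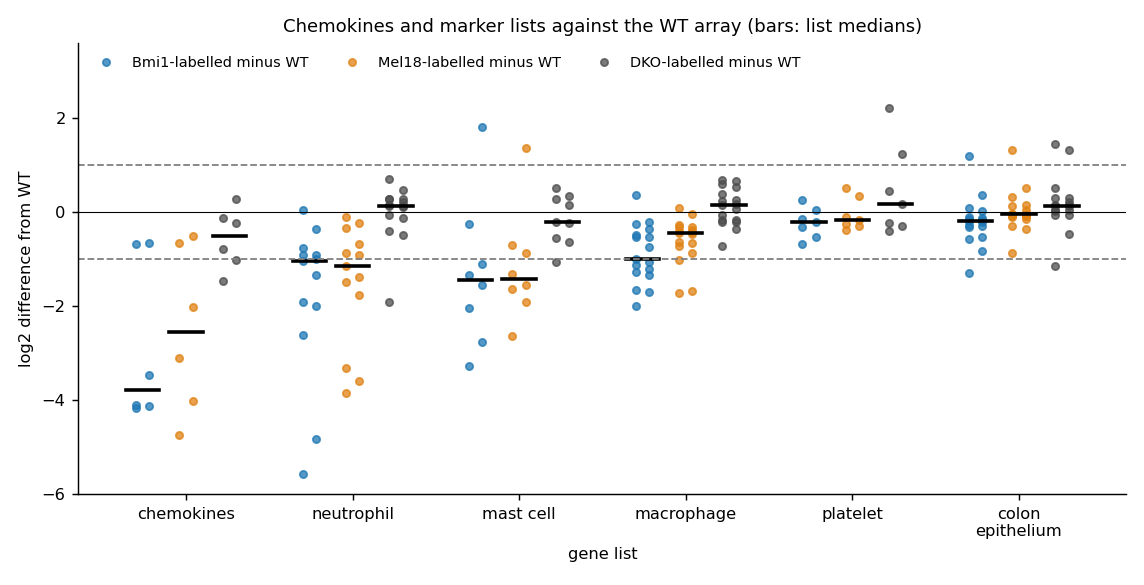
Log2 difference from the WT array for genes of 6 lists whose brighter value reached the floor, with 1 point per gene, a column for each knockout-labelled array, black bars at list medians and dashed lines at 2-fold. The chemokine medians of -3.79 and -2.56 lie below those of the neutrophil list at -1.03 and -1.15, and the platelet and colon epithelium medians lie between -0.22 and 0.17.

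Genes with the most similar pattern were found by the root mean square difference of log2 values centred on each gene's mean over the 4 arrays, among genes that varied at least 2-fold. For Cxcl2 the nearest were Lpo, lactoperoxidase, at 0.13, the protease gene Prss22 at 0.19 and Il1b at 0.32, followed by the keratin Krt6b, Mcpt2 and the tryptophan-degrading enzyme Ido1 at 0.42 to 0.51. For Cxcl5 they were Krt12, Ly6m, the cornified envelope gene Sprr1a, Trim15, Clca4a and the goblet cell product Retnlb, at 0.29 to 0.48. For Cxcl3 they were the histone gene H2bc18, the macrophage enzyme gene Acod1, Krtdap, Sprr2h, the inducible prostaglandin synthase Ptgs2 and the acute-phase gene Saa3, at 0.27 to 0.37. No gene was as close to Ppbp, whose nearest were Lpo, Sprr2d, Cxcl2, Krt6b, arginase (Arg1) and Prss22 at 0.71 to 0.80. Values under the floor enter the distances of Ppbp, Cxcl3 and Cxcl5, also those to other members. Such distances are not exact, and the larger ones of Ppbp may rest on these values. Cxcl1 and Pf4 varied less than 2-fold with the probe sets used and differed from each other by 0.06. Genes varying as little as Cxcl1 and Pf4 were not candidates, so closer patterns among such genes were not looked for. Nearest to both among the candidates were Cnn2 and Rint1, at 0.12 and 0.13 from Cxcl1 and 0.14 each from Pf4. Oas1b, Ccnl2 and Rhbdl1 were among the nearest 6 of both, Tspan4 only of Cxcl1 and Ak4 only of Pf4. Among the members, Cxcl2 and Cxcl3 were 0.55 apart, and Ppbp and Pf4 2.05.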

How the data were processed

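RNA of colonic epithelial cells (200 ng of total RNA per array, per the labels) was hybridised to 4 arrays, 1 per genotype. The authors deposited an intensity per probe set on a linear scale, for which the submitters' processing notes name RMA and Affymetrix Expression Console without versions. Neither those notes nor the labels state if RMA was run on all arrays at once. Log2 was taken without a pseudocount. Of 45037 probe sets, 34945 had 1 gene symbol, 932 several and 9160 none. Of those with 1 symbol, 34741 were matched by gene identifier to assembly GRCm38.p6 and took its symbol, and the rest kept the platform's. Of 18193 genes, 12154 reached the floor on at least 1 array. The size rule is 2-fold with the brighter value at or above the median of all values. It was tested on simulated data with an assumed noise level. Changes over 2-fold were planted there only in genes far above the floor, so that test does not cover dim values.

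The 6 genes and all lists were chosen with earlier results of these data known. Genes named from lists are those past the size rule, at most 4 per list and direction, with others named as examples after their values were seen. All receptors and other CXC chemokines, and the 6 genes nearest each chemokine, are named, without systematic names. The follow-up of the other genes with the promoter element was added after the data were seen. The 9 alternatives cover probe-set choice, floor, scaling, fold and a pseudocount. Python 3.11.15, pandas 2.3.3 and numpy 2.4.6 were used.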

Additional observations from a re-analysis of the deposited data

Results flagged for a closer look

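Cxcl2, Cxcl5 and Ppbp were lower than WT by the size rule on each array labelled for a single loss, yet higher on the DKO-labelled array than on either of those arrays, so each contrast has opposite directions on the 2 backgrounds. The difference between backgrounds, on the log2 scale, was 7.16 for Cxcl2, 5.33 for Cxcl5 and 9.14 for Ppbp. It has the same value for the Bmi1 and the Mel18 contrast by construction. Values under the floor enter it for Cxcl5 and Ppbp, so its size is not exact for these genes. With 1 array per genotype the difference was not tested. The summed intensity of neutrophil markers ran in the same order of WT and DKO-labelled above the others, from 1492 to 3908 units, or from 559 to 2934 without Cd177. Without Cd177 the WT sum rests largely on S100a8, S100a9 and Ltf, at 935, 762 and 384 units, while granule genes such as Mpo and Camp lay under the floor on every array. The part of neutrophil markers in the pattern was not tested.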

How the results depend on the processing

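The counts of lower genes on the Bmi1ΔIEC-labelled and Mel18ΔIEC-labelled arrays, 4 each, and of genes higher on the DKO-labelled array against each of those, 3 each, stayed within 1.5 times under all 9 alternatives. The genes behind them changed. With the floor at percentile 75 Cxcl3 no longer passed on either array, leaving 3. With both probe-set alternatives Cxcl1 joined, giving 5. With the 1.5-fold rule Cxcl1 joined on both arrays and Pf4, at -0.66, on the Bmi1ΔIEC-labelled array. With log2 of the intensity plus 32, Cxcl5 no longer passed as higher on the DKO-labelled array than on the Mel18ΔIEC-labelled array, where its main value was 1.22. The 2 lower genes of the DKO-labelled array became 1 with the floor at percentile 75, 1 with quantile normalization and 0 with log2 of the intensity plus 32, where Cxcl2 read -0.96 and Cxcl3 -0.73. They became 3 without _x_at, _s_at and _a_at probe sets, with Cxcl1 at -1.51, and 3 with the 1.5-fold rule, with Cxcl5 at -0.79. The 1 gene that separated the arrays labelled for a single loss became 0 with the floor at percentile 75, as Cxcl5 at -2.10 lay under that floor. Cxcl2 kept its side of the rule on the arrays labelled for a single loss, from -4.40 to -3.47 and from -4.17 to -3.37, as did Ppbp, from -4.35 to -2.84 and from -4.90 to -3.04. Cxcl1 passed on both with the mean over probe sets, at -1.15 and -1.38. The neutrophil list median on the Bmi1ΔIEC-labelled array ran from -1.40 with the mean over probe sets to -0.71 with the pseudocount. On the DKO-labelled array it ran from -0.14 to 0.15, so it has no settled sign. Counts of list genes past the rule against WT moved by over 1.5 times in 85 of 373 values, 27 of them with the 1.5-fold rule, 22 with the pseudocount and 9 with the mean over probe sets. Leaving Cd177 out of the neutrophil sum was chosen after seeing the data. No called value changed direction. Causes were not tested. No paired analysis was possible because each genotype has 1 array. Signal near background limits Cxcl3, and Ppbp and Cxcl5 where they lie under the floor. It may also affect the sizes for Cxcl2 on the arrays labelled for a single loss.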
